A study of Mus musculus with 16 samples.

Results

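Cilia genes were followed in neonatal mouse cerebellum and lung, with and without the synthetic glucocorticoid dexamethasone. The 38 genes on the list were taken by symbol, and where a gene had several probe sets the brightest on average across the 16 arrays stood for it. Of these, 37 were measured among 18193 genes in all, and Arl13b was not analysed here. They fall into 17 motile cilia genes and 20 genes of intraflagellar transport (IFT), the BBSome and kinesin-2.

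A motile cilium is built on an axoneme of microtubules whose dynein arms, radial spokes and central pair make it beat, and whose tektins line the microtubule walls. In the lung such cilia stand on multiciliated cells of the airways, and in the hindbrain on ependymal cells and on the choroid plexus beside the cerebellum. IFT trains, pulled outward by kinesin-2 and returned by dynein, assemble nearly every cilium, motile or primary, and the BBSome is a coat of Bardet-Biedl syndrome proteins that moves membrane proteins along it. The transport genes are therefore needed in most cells of both tissues, whereas the motile genes belong to few cell types.

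All mice were C57BL/6J and were sampled at postnatal day 7. The 4 groups were whole cerebellum after dexamethasone, whole cerebellum after vehicle, whole lung after dexamethasone and whole lung after vehicle, each with 4 arrays from biological replicates. The series title calls the treatment chronic, and the sources used here do not give its dose, its schedule, or the sex and litter of the mice. Values are deposited log2 expression from Affymetrix arrays, which give no read depth, so the number of arrays limits the precision. In whole tissue, more cells of a type and more RNA per cell cannot be told apart, and this holds for each difference below.

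The tissues matched their labels. Averaged over 8 markers, cerebellar neuron genes lay between 10.81 and 11.73 in the cerebellar arrays and between 4.68 and 5.04 in the lung arrays, and 9 alveolar epithelium genes lay between 11.73 and 12.6 in lung and between 6.88 and 7.27 in cerebellum. Xist, an RNA made in females by their silenced X chromosome, was above 9 in 3 dexamethasone lungs and 1 vehicle lung, and in 2 dexamethasone cerebella and 1 vehicle cerebellum. The 3′ minus 5′ signal at Gapdh, which reflects RNA integrity, ran from 0.446 to 0.708 (log2) in dexamethasone lungs and from 0.84 to 1.044 in vehicle lungs, without overlap. That of actin overlapped, at 0.451 to 0.642 and 0.611 to 0.667. Among cerebellar arrays the vehicle array B81 was highest for both, at 0.518 for Gapdh and 0.942 for actin. The other cerebellar arrays reached at most 0.178 and 0.694. In lung, RNA integrity as read by Gapdh and treatment cannot be told apart.

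Genes of cilia often carry an X-box, the site of RFX transcription factors, near their start, and since several of the genes described here moved together the promoters were searched for its core. RefSeq promoters (GRCm38.p6, from 250 bases before to 50 bases after the gene start) were at hand for 31 of the 37 genes. A gene was counted if any of its promoter windows held a match. GTTGCC, the core of an X-box arm, was present on either strand in 15 of these 31 genes (48.4%), against 14.1% of all 27025 genes. It was in 6 of 14 motile genes (42.9%) and in 9 of 17 transport genes (52.9%). The forkhead motif TGTTTAC was in 0 of the 31 genes and in 4.05% of all genes. AGAACA, the core of a glucocorticoid receptor site, was in 5 of the 31 (16.1%) and in 21.3% of all. No motif contains another, though TGTTTAC and TGTTCT, the reverse complement of AGAACA, share their first letters, and a match is only a description of the window.

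Among the 16 genes of the list that changed with dexamethasone in lung or cerebellum, 12 had a promoter in the table and 7 of those held GTTGCC. The windows of 6 are shown, because they cover each kind of change reported here; capitals mark GTTGCC or its reverse complement GGCAAC. Hydin, Ccdc113 and Tekt2 are motile genes that rose in lung, Ift88 is a transport gene that rose there, Bbs7 fell there, and Bbs5 rose in cerebellum. Windows run 5′ to 3′ on the gene's strand, at chr8:110266727-110267026 (plus) for Hydin, chr8:95533850-95534149 (plus) for Ccdc113, chr4:126325639-126325938 (minus) for Tekt2, chr14:57423821-57424120 (plus) for Ift88, chr3:36613340-36613639 (minus) for Bbs7 and chr2:69646921-69647220 (plus) for Bbs5.
Hydin: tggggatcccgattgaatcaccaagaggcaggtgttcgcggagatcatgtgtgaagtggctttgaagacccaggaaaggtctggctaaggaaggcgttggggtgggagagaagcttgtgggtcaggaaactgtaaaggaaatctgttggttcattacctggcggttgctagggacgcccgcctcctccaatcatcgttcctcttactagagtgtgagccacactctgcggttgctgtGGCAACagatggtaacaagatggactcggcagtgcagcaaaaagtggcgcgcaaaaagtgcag
Ccdc113: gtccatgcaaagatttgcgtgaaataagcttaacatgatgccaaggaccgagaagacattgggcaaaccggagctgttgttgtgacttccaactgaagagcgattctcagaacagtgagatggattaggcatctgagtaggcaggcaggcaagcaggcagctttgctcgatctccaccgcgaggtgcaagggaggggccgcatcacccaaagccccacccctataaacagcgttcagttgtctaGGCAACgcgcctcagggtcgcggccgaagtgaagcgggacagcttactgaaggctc
Tekt2: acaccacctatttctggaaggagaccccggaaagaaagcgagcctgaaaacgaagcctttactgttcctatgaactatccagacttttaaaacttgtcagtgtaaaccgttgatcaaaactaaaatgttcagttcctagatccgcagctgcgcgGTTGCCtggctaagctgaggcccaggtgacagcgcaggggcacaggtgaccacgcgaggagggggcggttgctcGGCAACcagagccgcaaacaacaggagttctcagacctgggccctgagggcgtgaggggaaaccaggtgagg
Ift88: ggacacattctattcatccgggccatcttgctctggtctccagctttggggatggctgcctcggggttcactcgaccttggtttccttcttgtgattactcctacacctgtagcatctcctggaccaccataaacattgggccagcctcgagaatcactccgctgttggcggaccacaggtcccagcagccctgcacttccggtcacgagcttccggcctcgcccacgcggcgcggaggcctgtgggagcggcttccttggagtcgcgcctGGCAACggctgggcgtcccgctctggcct
Bbs7: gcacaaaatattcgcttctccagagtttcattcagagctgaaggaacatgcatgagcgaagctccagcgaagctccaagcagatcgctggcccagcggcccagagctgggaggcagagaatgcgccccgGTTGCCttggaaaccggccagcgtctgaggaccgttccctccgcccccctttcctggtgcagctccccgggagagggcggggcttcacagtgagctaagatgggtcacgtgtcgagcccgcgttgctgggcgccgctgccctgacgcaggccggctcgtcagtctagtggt
Bbs5: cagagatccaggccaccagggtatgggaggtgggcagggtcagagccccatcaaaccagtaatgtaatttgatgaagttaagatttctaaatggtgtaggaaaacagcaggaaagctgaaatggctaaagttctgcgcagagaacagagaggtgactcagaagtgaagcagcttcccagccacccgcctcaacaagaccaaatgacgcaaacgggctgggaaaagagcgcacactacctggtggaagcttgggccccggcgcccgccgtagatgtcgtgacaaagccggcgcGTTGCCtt
With 0 as the first base of the gene, the core began at position -13 in Hydin, -6 in Ccdc113, and at -96 and -22 in Tekt2. In Ift88 and Bbs5 it lay after the start, at 21 and 42, and in Bbs7 at -121. In Hydin and Ccdc113 the letters gttg stand 5 bases before the capitals' gcaac, as opposed arms do in a full X-box. This longer pattern, GTTGNNNNNGCAAC, was searched on both strands after the windows had been seen. It was in Ccdc113, Hydin and Ift140 (9.68% of the 31 genes), and in 0.411% of all genes. The pattern was read from the Hydin and Ccdc113 windows, so their matches were fixed by its choice. The shares therefore cannot be compared as a test. In Tekt2 gttg stands before gcaac with a shorter gap, which the pattern does not cover.

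Motile cilia genes were higher in the dexamethasone lungs than in the vehicle lungs. In a limma fit over all genes, 10 of the 17 rose and 0 fell at an adjusted p under 0.05, where 15.7% of all genes rose and 15.5% fell (31.2% in either direction). Their median log2 difference was 0.55, with 16 of 17 above 0, against 0.05 over all genes tested. For 9 of the 17 every dexamethasone array lay above every vehicle array, which held for 15.1% of all genes, as the reverse did for 15.5%. Averaged over the 17 genes, the dexamethasone lungs lay between 6.77 and 7.02 and the vehicle lungs between 6.23 and 6.48.

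**Figure D1:**
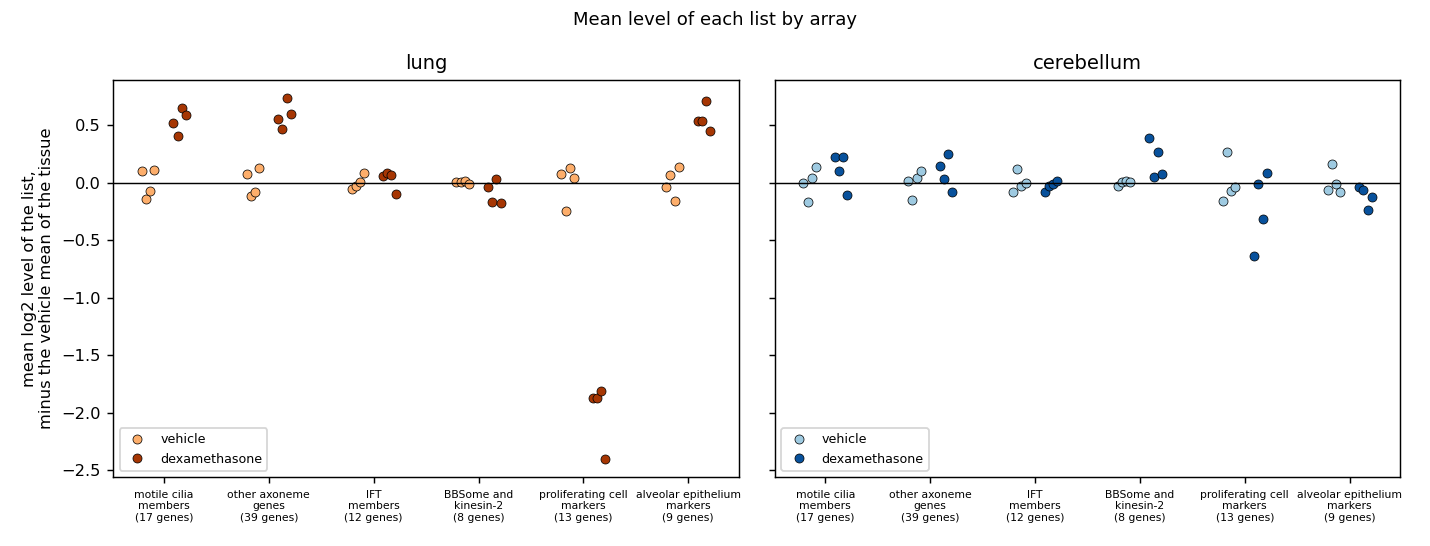
Mean log2 level of 6 gene lists by array, minus the vehicle mean of the same tissue, in lung (left) and cerebellum (right); each point is an array. In lung the 4 dexamethasone points of the motile cilia list and of the other axoneme genes lie above the vehicle points, the IFT points overlap, and the proliferating cell markers lie below.

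Foxj1 encodes the forkhead factor that switches on the motile cilia programme. Its log2 level was 7.5, 7.43, 7.2 and 8.03 in the dexamethasone lungs and 7.14, 6.72, 6.69 and 6.95 in the vehicle lungs. Every treated array was higher than every vehicle array, although the gap between the groups was small. The rise was 1.58-fold (log2 difference 0.66 ± 0.23 SE, adjusted p = 0.0337). The call was lost in 7 of 22 other settings, namely with Xist as covariate, with array weights, and without B28, B46, B14, B19 or B22 (adjusted p 0.0537 to 0.113), and the difference stayed between 0.50 and 0.78.

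The dynein arm genes hold the firmest rise of the list. Dnali1, a light chain of the inner arms, was at 8.04, 8.04, 8.37 and 8.28 in dexamethasone lungs and at 7.39, 6.88, 7.02 and 7.52 in vehicle lungs. The groups stood well apart, and the rise was 1.97-fold (0.98 ± 0.16, adjusted p = 0.00022). Its other probe set rose too, by 0.45 ± 0.15. Dnah5, a heavy chain of the outer arms and a common site of mutation in primary ciliary dyskinesia, was at 4.62, 5.18, 4.83 and 5.08 against 4.41, 3.93, 4.2 and 4.5. Its arrays did not overlap either, at levels near 5.17, the lower quartile of all gene means, or below it, and it rose 1.59-fold (0.67 ± 0.15, adjusted p = 0.00199). Dnah11, another outer arm heavy chain, was not called, at -0.17 (95% interval -0.41 to 0.08).

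Among the radial spoke and central pair genes, 3 of 6 rose. Hydin, a central pair protein whose loss gives hydrocephalus, was at 5.66, 5.22, 5.38 and 5.54 in dexamethasone lungs and at 4.88, 4.85, 5.09 and 4.86 in vehicle lungs. The lowest treated array exceeded the highest vehicle array, B19, and the rise was 1.44-fold (0.53 ± 0.12, adjusted p = 0.00236). A dimmer probe set of Hydin gave -0.04 ± 0.09 and was not called, so the 2 probe sets disagree. Rsph4a, a protein of the spoke head, was at 6.77, 6.99, 7.4 and 6.88 against 6.42, 5.17, 6.01 and 6.14. It had the largest difference of the 37 genes, a 2.11-fold rise (1.08 ± 0.29, adjusted p = 0.00848), with vehicle arrays spread over more than 1 log2 unit. Rsph1, another spoke head protein, rose by 0.55 ± 0.14 (adjusted p = 0.00667). Rsph9, Spag16 and Spag17 had log2 differences of 0.35, 0.32 and 0.37 and were not called; their 95% intervals reached from -0.06, 0.01 and 0.04 to 0.75, 0.62 and 0.69.

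Of the coiled-coil and membrane proteins, 3 of 4 rose. Tmem212, a membrane protein of ciliated cells, was at 10.2, 10.15, 10.24 and 10.68 in dexamethasone lungs and at 9.65, 9.33, 9.19 and 9.71 in vehicle lungs. B46 stood above the other treated arrays, and all 4 exceeded the vehicle arrays (1.80-fold, 0.85 ± 0.19, adjusted p = 0.00287). Ccdc40, which with Ccdc39 sets the repeat length of the axoneme, rose by 0.78 ± 0.18 (adjusted p = 0.00333). Its partner Ccdc39 did not pass, at 0.09 (95% interval -0.29 to 0.47). Ccdc113, a protein of the axoneme and of its base, rose by 0.57 ± 0.15 (adjusted p = 0.00758). The tektins, filament proteins inside the doublet microtubules, gave 1 call in 3. Tekt2 rose by 0.71 ± 0.17 (adjusted p = 0.00457), with the treated array B46, at 5.97, inside the vehicle range of 5.72 to 6.11. Tekt1 (0.41, adjusted p = 0.115) and Tekt4 (0.44, adjusted p = 0.0549) were not called.

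**Figure D2:**
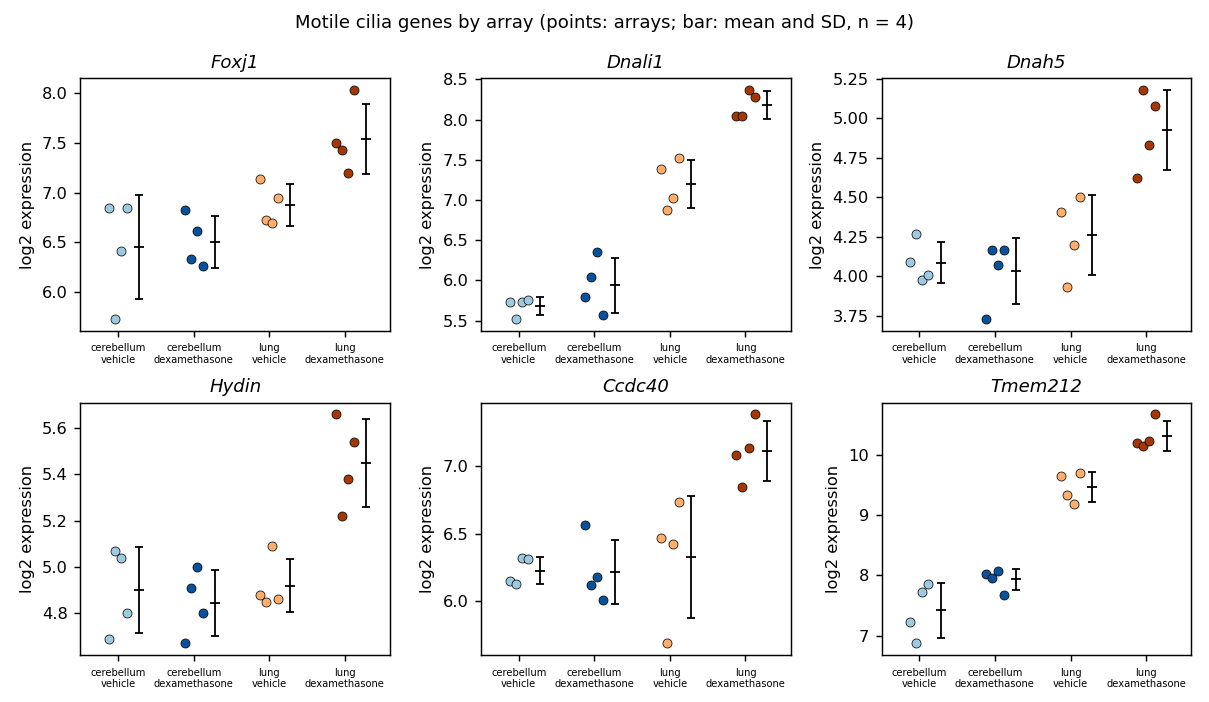
Log2 expression of Foxj1, Dnali1, Dnah5, Hydin, Ccdc40 and Tmem212 in each array of the 4 groups (points), with the mean and SD of 4 arrays (bars); each panel has its own axis, which does not start at 0. The 4 dexamethasone lungs lie above the 4 vehicle lungs in every panel, and the cerebellar groups overlap.

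The transport genes gave calls in both directions. Of 12 IFT genes, 2 rose and 1 fell, and of 8 BBSome and kinesin-2 genes 1 rose and 1 fell. Over all 20 the median log2 difference was -0.06, with 7 genes above 0 and 13 below. Their share of 3 rises among 20 is close to the 15.7% of all genes that rose. The means over the 12 IFT genes were 8.52 to 8.7 in dexamethasone lungs and 8.56 to 8.7 in vehicle lungs.

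Ift88, a core subunit of the IFT-B train whose mutation shortens cilia, was at 7.88, 8.2, 7.87 and 7.84 in dexamethasone lungs and at 7.62, 7.45, 7.32 and 7.5 in vehicle lungs. No array overlapped, B31 stood above the other treated arrays, and the rise was 1.39-fold (0.47 ± 0.10, adjusted p = 0.00133). Ift122, a core subunit of the IFT-A train that works in the return and in membrane protein entry, went the other way, at 8.2, 8.36, 8.22 and 7.72 against 8.58, 8.59, 8.67 and 8.67. It fell 1.41-fold (-0.50 ± 0.12, adjusted p = 0.0032), and its other probe set also fell (-0.56 ± 0.13). Ift140, a subunit of the same IFT-A complex, was at 8.87, 9.11, 8.69 and 8.43 against 8.36, 8.3, 8.53 and 8.51. B46 lay within the vehicle range, and the rise of 0.35 ± 0.12 (adjusted p = 0.0421) lost its call in 12 of 23 other settings (adjusted p 0.0502 to 0.145), including without B28, B31, B12, B14 or B22. The other 9 IFT genes were not called. They ran from -0.31 for Ift27, a small GTPase of the IFT-B train, to 0.39 for Ift20 (adjusted p = 0.0529), which also carries cargo from the Golgi. Ift20 passed in 8 of 23 other settings. Of the 3 probe sets of Ift27 only the dimmest was called, at -0.69 ± 0.17, with the others at -0.31 and -0.28.

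Within the BBSome, Bbs7 fell and Bbs2 rose. Bbs7 was at 6.62, 6.13, 6.38 and 6.15 in dexamethasone lungs and at 6.54, 6.93, 6.92 and 6.93 in vehicle lungs. Only the vehicle array B12 entered the treated range, and the fall was 1.42-fold (-0.51 ± 0.12, adjusted p = 0.00305). Its other probe set, with a mean of 3.98, gave 0.22 ± 0.10, and with the probe sets averaged the fall was no longer called (adjusted p = 0.288). Bbs2 was at 7.36, 7.31, 7.53 and 7.09 against 6.83, 7.03, 6.7 and 7.12. Its groups touched at B46 and B22, and the rise was 1.32-fold (0.40 ± 0.12, adjusted p = 0.0167), lost without B40 or B19 (adjusted p 0.0566 to 0.0587). Bbs1, Bbs4, Bbs5 and Bbs9 lay between -0.22 and 0.15 and were not called. Of the motor subunits, Kif3a was at -0.24 (95% interval -0.49 to 0.02). Kif3b was at -0.01 on the probe set used, while another of its 4 probe sets was called higher, at 0.43 ± 0.12.

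**Figure D3:**
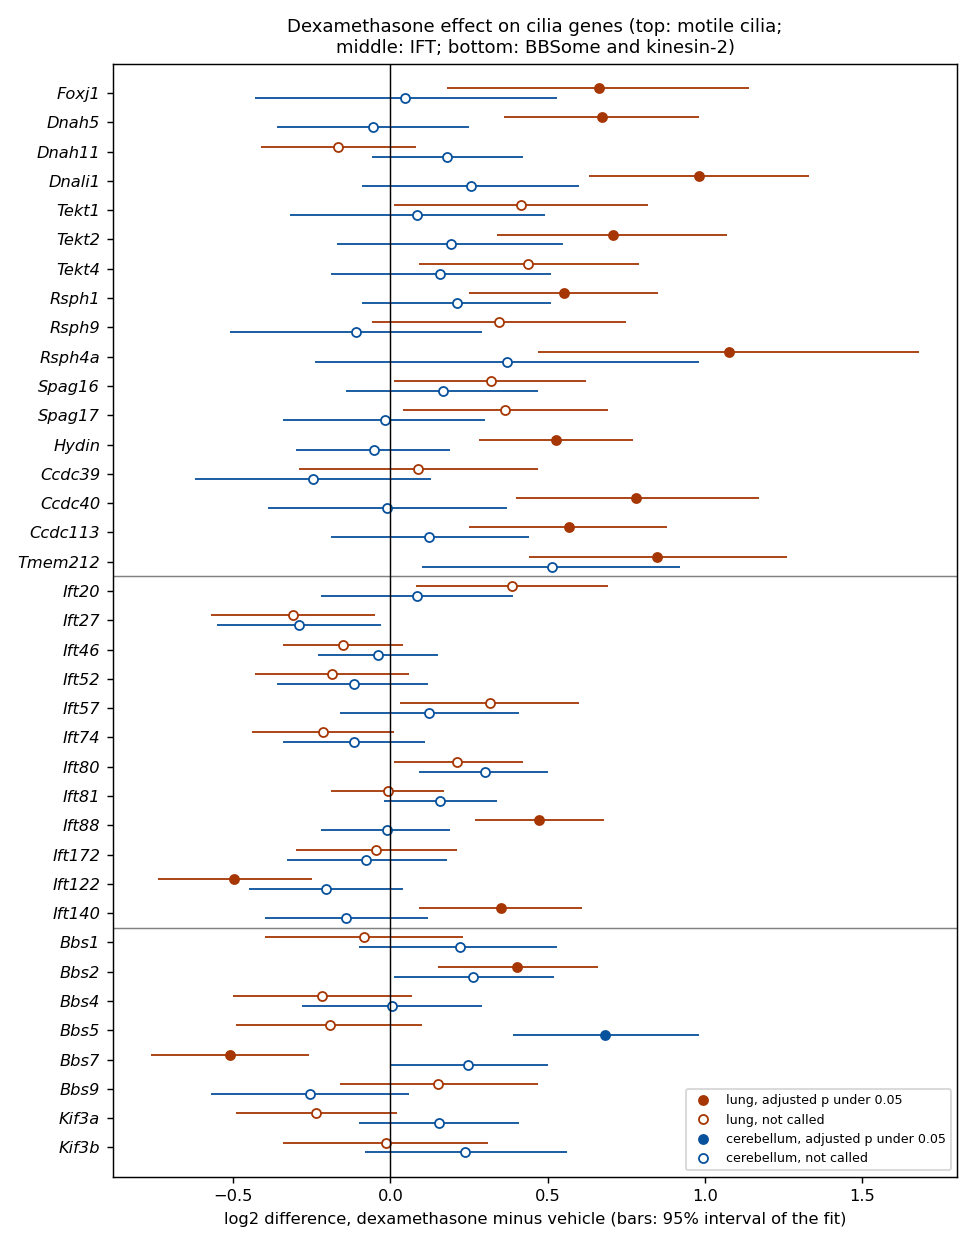
Log2 difference of dexamethasone minus vehicle for the 37 genes, in lung (orange) and cerebellum (blue), with the 95% interval of the limma fit; filled points have an adjusted p under 0.05. In lung 10 of 17 motile genes are filled to the right of 0, while the transport genes lie on both sides; in cerebellum Bbs5 alone is filled.

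Cell type markers and the wider pathway moved in the same arrays. Of 39 further genes of the axoneme and its assembly, 28 rose in lung and 0 fell, where 15.7% of all genes rose and 15.5% fell. Their median was 0.61, against 0.05 over all genes. Cfap161, a microtubule inner protein, was at 7.38, 7.38, 7.37 and 7.31 in dexamethasone lungs and at 6.15, 5.57, 5.83 and 6.23 in vehicle lungs, a 2.66-fold rise (1.41 ± 0.14, adjusted p = 1.69e-06). Cfap126, a protein of the ciliary base, and Zmynd10, an assembly factor of dynein arms, rose by 0.79 ± 0.12 and 0.65 ± 0.11. Several of these genes share cells and assembly steps with the 17, so they are no separate replicate of the result.

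The regulators of multiciliated cells were mixed, with 3 of 12 higher and 1 lower, close to the 31.2% of all genes called in lung. Ccno, a cyclin-like protein needed to make the many basal bodies, rose by 0.67 ± 0.14 (adjusted p = 0.00167), and Rfx2, an X-box factor, by 0.51 ± 0.10 (adjusted p = 0.000848). E2f4, a partner of the regulators that start centriole amplification, rose by 0.29 ± 0.10 (adjusted p = 0.0274). Plk4, the kinase that starts centriole copying in cycling cells as well, fell 3.68-fold (-1.88 ± 0.23, adjusted p = 9.09e-06). Myb and Rfx3 were at -0.02 and -0.11 and were not called.

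Among genes of the ciliary base and its gate, falls outnumbered rises in lung. Of 11 basal body and centriole genes, 4 fell and 0 rose, where 15.5% of all genes fell and 15.7% rose. All 11 differences were below 0 (median -0.27), as were 7818 of all 18193. Cep97, which caps centrioles until a cilium forms, Fbf1, a distal appendage protein, and Ttbk2, the kinase that releases the cap, fell by 0.68 ± 0.13, 0.45 ± 0.10 and 0.80 ± 0.18. Of 15 transition zone genes 3 fell and 1 rose, a share of falls near the 15.5% of all genes that fell. Cc2d2a, a gate protein mutated in Joubert and Meckel syndromes, was at 8.31, 8.3, 8.25 and 7.69 against 9.15, 9.15, 9.15 and 9.31 and fell 2.07-fold (-1.05 ± 0.12, adjusted p = 5.23e-06). Cep290, a linker of this zone, fell by 0.59 ± 0.18, and Tmem216, a membrane protein there, rose by 0.37 ± 0.09.

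The remaining transport lists gave 3 calls each, where 31.2% of all genes were called in lung. Among 18 other IFT genes Traf3ip1, an IFT-B subunit, rose by 0.45 ± 0.12, and Tulp3, which brings receptors into cilia, and Ttc30a1, an IFT-B subunit, fell by 0.77 ± 0.11 and 0.47 ± 0.14. Among 12 other Bardet-Biedl and membrane traffic genes Rab8a, a GTPase of vesicle transport, and Inpp5e, a lipid phosphatase of the ciliary membrane, rose by 0.38 ± 0.09 and 0.31 ± 0.09. Bbip1, a small BBSome subunit, fell by 0.59 ± 0.14.

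Some epithelial markers rose in the same lungs, where 15.7% of all genes rose. Of 7 airway secretory genes 4 rose and 0 fell (median 1.09). The secreted airway protein Bpifa1 rose 19-fold, the club cell enzyme Cyp2f2 1.85-fold and the secretoglobin Scgb3a1 5.73-fold. Scgb3a1 varied widely among vehicle lungs, at 12.4, 9.57, 9.37 and 11.78, against 12.67 to 13.64 after dexamethasone. Scgb1a1, the main secretoglobin of club cells, was at 0.16 ± 0.12 and was not called. At 14.26 to 14.58 in every lung array Scgb1a1 lay near the highest value on the arrays, 14.8, so a change in it could be missed. Averaged over the 7, dexamethasone lungs lay between 11.04 and 11.86 and vehicle lungs between 9.36 and 10.83. Within vehicle lungs B12 and B22 were the highest arrays for this list and also for the motile genes (6.47 and 6.48 against 6.23 and 6.30 in B14 and B19), and within dexamethasone lungs B31 was the lowest for both. Of 9 alveolar epithelium genes 7 rose (median 0.54), led by the water channel Aqp5, the homeodomain protein Hopx and the surfactant protein Sftpa1. Of 5 airway basal cell genes 1 rose, the keratin Krt15 (1.28 ± 0.19). The other 4, Trp63 and Krt5 among them, were not called (median of the list 0.19). Of 13 proliferating cell genes all 13 fell (median -2.31), with Bub1, a mitotic checkpoint kinase, lower by -3.11, Top2a, a DNA topoisomerase, by -2.96 and Cdk1, the mitotic kinase, by -2.39. Means over these 13 were 7.34 to 7.93 in dexamethasone lungs and 9.5 to 9.87 in vehicle lungs. What part these shifts or the Gapdh signal have in the rise of the motile genes was not tested.

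In cerebellum the motile genes were not called. Of the 17, 0 rose and 0 fell, where 2.84% of all genes rose and 1.97% fell, 1 had an unadjusted p under 0.05, and no other limma setting tried called any. Their median was 0.12, with 11 above 0, and in none of the 17 did the arrays separate, as they did upward for 7.13% and downward for 5.44% of all genes. Foxj1 was at 6.82, 6.33, 6.61 and 6.26 after dexamethasone and at 6.84, 5.73, 6.41 and 6.84 after vehicle. The groups overlapped fully and the difference was 0.05 (95% interval -0.43 to 0.53). Tmem212 had the largest value, at 8.03, 7.96, 8.07 and 7.68 against 7.23, 6.87, 7.72 and 7.86. Vehicle array B81 lay above treated array B52, and the difference of 0.51 ± 0.19 had an adjusted p of 0.161.

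Markers of the choroid plexus, whose cells carry cilia and lie beside the cerebellum, varied between the arrays of both groups. The mean of 8 choroid markers ran from 7.87 to 8.99 after dexamethasone and from 8.01 to 8.88 after vehicle. Its lowest array in each group, B52 and B79, was also the lowest for the motile genes (5.68 and 5.63). After dexamethasone the arrays stood in the same order for both lists. After vehicle they did not. B78 was highest for the choroid markers (8.88), but its motile mean of 5.79 lay below those of B80 and B81 (5.84 and 5.93). Of the 8 choroid markers 1 fell and 0 rose, where 1.97% of all genes fell, and 5 were above 0 (median 0.04). Otx2, a transcription factor of choroid cells, fell by 0.60 ± 0.13 (adjusted p = 0.014). Ttr, the transthyretin carrier, was at 0.05 ± 0.19. Of 8 neuron markers 2 rose and 0 fell (median 0.14), where 2.84% of all genes rose. Gabra6, a receptor subunit of mature granule cells, and Pvalb, a calcium-binding protein, rose by 1.23 ± 0.23 and 1.04 ± 0.21. The part of these markers' cells in the cerebellar values was not tested.

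Among the 20 transport genes, Bbs5 alone was called in cerebellum. It encodes a BBSome subunit that binds membrane lipids. Its levels were 7.11, 6.98, 7.18 and 7.27 after dexamethasone and 6.36, 6.59, 6.34 and 6.52 after vehicle. The groups stood clearly apart, and the rise was 1.61-fold (0.68 ± 0.14, adjusted p = 0.00821). It was called in each of the 22 other settings, with adjusted p from 0.00193 to 0.0309. The count of 1 in 37 genes lies near the background of 4.8% of all genes called in cerebellum.

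The other transport genes had smaller differences. Of the IFT genes, with 0 of 12 called and 2 with an unadjusted p under 0.05, Ift80, an IFT-B subunit mutated in a skeletal ciliopathy, had the lowest adjusted p. It was at 8.11, 8.2, 8.22 and 8.29 against 7.96, 7.92, 7.62 and 8.12, and array B81 lay inside the treated range. Its difference of 0.30 ± 0.10 (adjusted p = 0.0931) passed without B81, with array weights or without the dim genes (adjusted p 0.0443 to 0.0492). B81 had the highest 3′ minus 5′ signals of the cerebellar arrays. Ift46, the brightest IFT gene, was at 9.7, 9.84, 9.51 and 9.85 against 9.65, 9.88, 9.83 and 9.7, with overlap. Kif3a, the motor subunit, was at 10.84, 10.35, 10.63 and 10.42 against 10.56, 10.36, 10.4 and 10.31, with overlap (0.15, 95% interval -0.10 to 0.41). Bbs7 was at 7.26, 7.48, 7.39 and 7.34 against 7.09, 7.25, 7.05 and 7.08, without overlap, at 0.25 ± 0.12 (adjusted p = 0.292). The means over the 8 BBSome and kinesin-2 genes lay between 7.72 and 8.06 after dexamethasone and between 7.64 and 7.69 after vehicle.

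**Figure D4:**
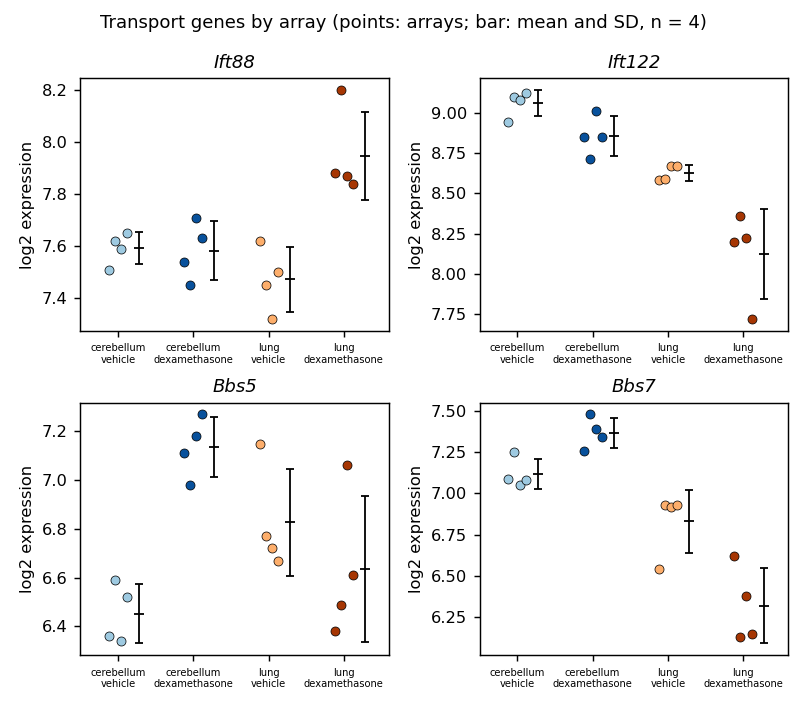
Log2 expression of Ift88, Ift122, Bbs5 and Bbs7 in each array of the 4 groups (points), with the mean and SD of 4 arrays (bars); each panel has its own axis, which does not start at 0. Ift88 is higher and Ift122 lower in dexamethasone lungs, Bbs5 is higher in dexamethasone cerebella, and Bbs7 is lower in dexamethasone lungs with B12 as the low vehicle array.

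The wider lists were also counted in cerebellum, where 2.84% of all genes rose and 1.97% fell. The lists were not tested against each other. Of the 39 further axoneme genes 0 were called in cerebellum, 2 with an unadjusted p under 0.05, and of 12 multiciliated cell regulators 0, 1 with an unadjusted p under 0.05. Of 18 other IFT genes 3 rose. Ttc21b, an IFT-A subunit, was at 7.48, 7.98, 7.86 and 7.86 after dexamethasone and at 6.63, 6.65, 6.78 and 6.88 after vehicle, a 2.09-fold rise (1.06 ± 0.13, adjusted p = 0.000256). Traf3ip1 and Dync2h1, the heavy chain of the return motor, rose by 0.56 ± 0.12 and 0.27 ± 0.08. Of 12 other Bardet-Biedl and membrane traffic genes 3 rose, namely Inpp5e (0.43 ± 0.09), Mkks, a chaperone that helps build the BBSome (0.41 ± 0.10), and Ttc8, a BBSome subunit (0.68 ± 0.18). Of 15 transition zone genes 2 rose. Iqcb1, a partner of Cep290, was at 8.16, 7.79, 8.04 and 8.25 against 6.92, 7.07, 7.1 and 7.24 (1.97-fold, 0.98 ± 0.11, adjusted p = 9.99e-05), and Cc2d2a rose by 0.63 ± 0.12. Of 11 base genes Cep97 rose by 0.68 ± 0.13 and Ofd1, a centriole protein mutated in oral-facial-digital syndrome, fell by 0.50 ± 0.10.

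Whether the response differed between the tissues was tested as the lung difference minus the cerebellar difference. Of the 37 genes 5 were called with a higher and 2 with a lower value in lung, where 9.85% and 11.5% of all genes were called (21.3% in all). The 7 called genes are a share near that background. The 4 motile genes among them were Dnah5 (0.73 ± 0.21, adjusted p = 0.0184), Hydin (0.58 ± 0.17, 0.019), Dnali1 (0.73 ± 0.23, 0.0342) and Ccdc40 (0.79 ± 0.26, 0.037). All 4 rose in lung and were not called in cerebellum, at -0.06, -0.05, 0.26 and -0.01. In cerebellum Dnah5 averaged 4.03 after dexamethasone and 4.09 after vehicle, and Hydin 4.84 and 4.9. These levels lie below 5.17, the lower quartile of all gene means, so a cerebellar change in either gene could be missed. The calls of Dnali1 and Ccdc40 were lost in 11 and 9 of 21 other settings, with adjusted p up to 0.105 and 0.0729, each of them without B52, B78, B80, B81, B40 or B46 among others. With the probe sets averaged Hydin was lost (adjusted p = 0.0702).

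For the other 13 motile genes no difference between the tissues was shown. Foxj1 had 0.62 (95% interval -0.06 to 1.29, adjusted p = 0.197), and it passed without B79, the array with its lowest cerebellar level (adjusted p = 0.031). Tmem212, with values of 0.85 in lung and 0.51 in cerebellum, had 0.34 (95% interval -0.24 to 0.91). Dnah11 had -0.35, the only motile value below 0 (adjusted p = 0.152).

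Among transport genes Ift88 responded more in lung (0.49 ± 0.14, adjusted p = 0.0188), and Bbs5 and Bbs7 responded in the other direction. Bbs5 had a difference of -0.88 ± 0.20 (adjusted p = 0.00433), from a rise of 0.68 in cerebellum and an uncalled -0.19 in lung. Bbs7 had -0.76 ± 0.17 (adjusted p = 0.00359), from -0.51 in lung and an uncalled 0.25 in cerebellum, and averaging its probe sets ended the call (adjusted p = 0.287). Bbs5 and Ift88 were called in each of the other settings run for this difference. Outside the list Cc2d2a had the largest such difference of the base and gate genes (-1.68 ± 0.17, adjusted p = 6.14e-06), falling in lung and rising in cerebellum, as Cep97 did (-1.36 ± 0.19, adjusted p = 9.07e-05).

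Without dexamethasone the classes already sat differently in the tissues. In vehicle mice 9 of 17 motile genes were higher in lung than in cerebellum and 0 were lower (median 0.52), where 28% of all genes were higher in lung and 29.7% lower, 57.7% together. Of the 20 transport genes 3 were higher in lung and 9 lower (median -0.15, against 0.00 over all genes). The arrays of the tissues did not overlap, with lung higher, for 7 motile and 3 transport genes (27.4% of all genes), and with lung lower for 0 and 9 (29% of all genes). This comparison uses the same vehicle arrays as the dexamethasone comparisons, so it is not independent of them.

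The largest differences toward lung were in motile genes. Tmem212 was at 9.65, 9.33, 9.19 and 9.71 in vehicle lungs and at 7.23, 6.87, 7.72 and 7.86 in vehicle cerebella, 4.14-fold higher in lung (2.05 ± 0.19, adjusted p = 6.24e-08). Dnali1 was at 7.39, 6.88, 7.02 and 7.52 against 5.73, 5.52, 5.73 and 5.76, 2.86-fold higher (1.51 ± 0.16), and Tekt4 at 6.3, 6.88, 6.3 and 6.21 against 5.23, 5.5, 5.1 and 5.67, 2.07-fold higher (1.05 ± 0.17). None of these groups overlapped. Foxj1 itself was not called (0.42, 95% interval -0.06 to 0.90), and Tekt2, Hydin, Ccdc39 and Ccdc40 differed by 0.10 or less.

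The largest differences toward cerebellum were in transport genes. Bbs4, a BBSome subunit that links to centriolar satellites, was at 7.25, 7.53, 7.19 and 7.35 in vehicle lungs and at 8.73, 8.86, 8.51 and 8.77 in vehicle cerebella, 2.62-fold lower in lung (-1.39 ± 0.13, adjusted p = 8.74e-08). Ift27 was at 8.81, 8.86, 9.13 and 9.05 against 10.18, 10.36, 10.02 and 10.17 (-1.22 ± 0.12), and Ift57, an IFT-B subunit, at 8.4, 8.44, 8.37 and 8.7 against 9.41, 9.81, 9.61 and 9.47 (-1.10 ± 0.14). The arrays of the tissues stood apart for each. Kif3a, which also drives axonal transport in neurons, was 2.01-fold lower in lung (-1.01 ± 0.12), and Kif3b, Bbs1, Ift122, Ift140 and Bbs7 were lower by -0.59, -0.91, -0.43, -0.64 and -0.29. Ift20, Ift80 and Bbs5 were higher in lung, by 0.78, 0.35 and 0.38. Calls for Rsph4a, Spag16, Ift80, Bbs5 and Bbs7 were lost in 1 to 8 of the other settings.

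**Figure D5:**
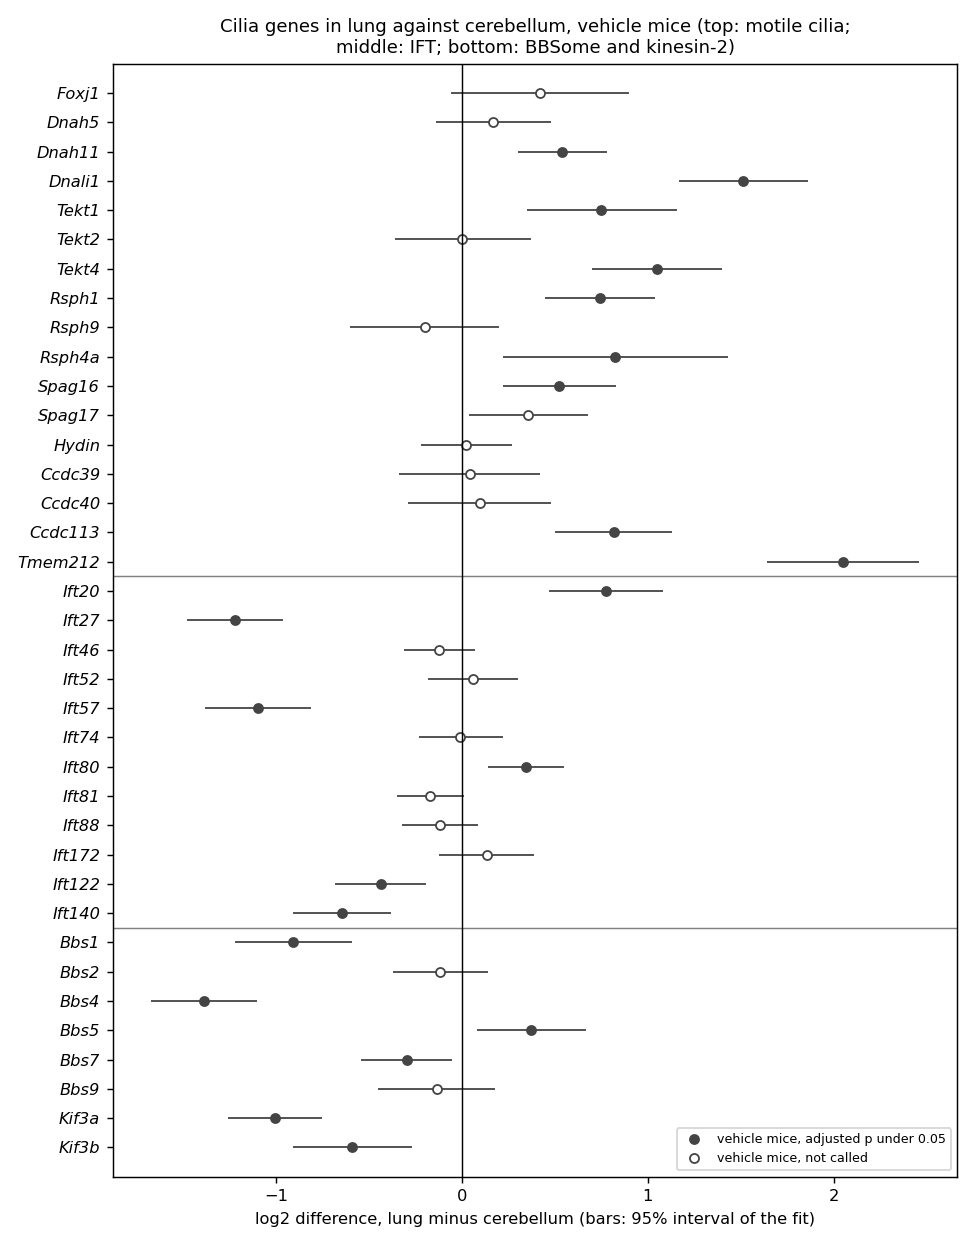
Log2 difference of lung minus cerebellum in vehicle mice for the 37 genes, with the 95% interval of the limma fit; filled points have an adjusted p under 0.05. The 9 filled motile genes all lie to the right of 0, and 9 of the 12 filled transport genes to the left.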

How the data were processed

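RNA from 16 tissue samples was hybridised to Affymetrix mouse arrays. The deposited values are log2 expression; per the submitters' processing notes the authors used RMA, with settings not given there. Undetected probe sets also get a value from RMA, and folds of dim genes are understated; 14 of the 17 motile genes lie below the median gene mean of 7.42.

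Probe sets with a single symbol in the platform annotation, updated through the RefSeq table, named 18193 genes. Limma 3.58.1 in R 4.3.3 fitted a mean for each of the 4 groups on all 16 arrays (12 residual degrees of freedom, eBayes), and p-values were adjusted by Benjamini-Hochberg over 18193 genes in each of 4 contrasts. Calls need an adjusted p under 0.05. Errors are moderated standard errors, with 95% intervals from the same fit. The fit was tested on simulated data.

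Every gene of the list is accounted for. Array values are given for Foxj1 and, per class and dexamethasone contrast, for up to 4 called genes with the smallest adjusted p, or for the brightest if there was no call. For the tissue comparison they are given for the 3 largest each way, and for other lists up to 3 called genes are named. Genes outside that rule, Ift80 and Kif3a in cerebellum among them, were named after their values were seen. The members, lists and rules were chosen with earlier results of these data known. Alternatives were averaging a gene's probe sets, a filter on dim genes, quantile normalization again, the arrays of 1 tissue only, a robust variance trend, array weights, a covariate for Xist, and dropping each array in turn. All arrays share a hybridization date, so no batch could be tested. Replicate names lie in separate ranges for each group. If these follow litter or collection, that cannot be told apart from treatment.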

Additional observations from a re-analysis of the deposited data

Results flagged for a closer look

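By the limma test of the difference itself, the response to dexamethasone differed between the tissues for 7 of the 37 genes. That share lies near the 21.3% of all genes called. The response was higher in lung for Dnah5 (0.73), Dnali1 (0.73), Hydin (0.58), Ccdc40 (0.79) and Ift88 (0.49). It was lower in lung for Bbs5 (-0.88) and Bbs7 (-0.76), all values on the log2 scale. Dnah5 and Hydin lay below the lower quartile of gene means in cerebellum.

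A single array stood far from the other 3 of its group in 8 of 148 sets of 4 values, where about 1 in 20 is flagged by chance. In the dexamethasone lungs Tmem212 was 10.68 in B46, with the others at 10.15 to 10.24, and Ift88 was 8.2 in B31, with the others at 7.84 to 7.88. In the vehicle lungs Tekt4 was 6.88 in B14 (others 6.21 to 6.3), Hydin was 5.09 in B19 (others 4.85 to 4.88) and Bbs7 was 6.54 in B12 (others 6.92 to 6.93). In the vehicle cerebella Dnali1 was 5.52 in B79 (others 5.73 to 5.76) and Spag16 was 4.98 in B78 (others 4.8 to 4.83). In the dexamethasone cerebella Rsph1 was 6.65 in B52 (others 7.22 to 7.31).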

How the results depend on the processing

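No called gene of the list changed direction under the alternatives run. Of the 15 genes called in lung 11 were called in each setting that tested them, as were 1 of 1 in cerebellum, 3 of 7 for the difference and 16 of 21 between the tissues. Leaving out an array in turn gave 13 to 19 called genes in lung, 1 to 2 in cerebellum (2 without B81), 5 to 8 for the difference and 18 to 22 between the tissues. Motile genes higher in lung numbered 9 to 13, transport genes higher 2 to 4 and lower 2 to 3 (3 without B79, B31 or B40), and motile genes called in cerebellum 0. Over all genes the cerebellar count of 874 ran from 528 (without B50) to 1229 (without B46) and was 1699 with array weights, which gave 2 called genes of the list there. Only genes above the median level left 18 genes of the list, 3 of them motile. On these, 7 were called in lung, 2 of them motile, 2 for the difference and 11 between the tissues. Over all genes 6931 were then called between the tissues, against 10497, and 1063 in cerebellum, against 874. The cause of these shifts was not tested. With the probe sets of a gene averaged 4 genes were called for the difference; Hydin and Bbs7, whose probe sets disagree, were among those lost. Quantile normalization again gave 5 transport genes higher in lung; the cause was not tested. No paired analysis was possible because no replicate number is shared between groups. Arrays have no depth; 4 per group and the dim level of most motile genes limit what could be seen.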
